A study of Mus musculus with 10 samples.

Results

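The gene for the transcription factor p53, Trp53, and 7 of its target genes (Cdkn1a, Mdm2, Ccng1, Bax, Bbc3, Sesn2 and Plk2) were followed in single-cell RNA of mouse breast tumors. The members were taken by gene symbol, and all 8 were found among the 31053 genes counted. The tumors came from E0771, a line of mouse mammary carcinoma, which was injected into the mammary fat pad of female mice aged 16 weeks, and they were collected on day 21. The EC-AGO1-KO mice carried AGO1 flox/flox and a Cre driven by the VE-Cadherin promoter, which is active in endothelial cells (ECs), on a C57BL/6 background. The WT mice were their littermates, whose alleles at the flox locus are not given in the sources used here. The deletion lay in the host endothelium, so the injected E0771 cells of both groups were the same unmodified line. Each group had 5 libraries. The 5 KO libraries held 7 tumors, because the libraries KO 2+3 and KO 5+6 each pooled a pair of small tumors. The libraries were made in 2 batches, the first with 1 library per group and the second with 4 per group.

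p53 is a transcription factor that is stabilized by DNA damage and other stress and then switches on genes of cell cycle arrest, cell death and repair. Its activity is set largely by how fast the protein is degraded, so the RNA of its targets, rather than its own RNA, is the usual readout. Cdkn1a encodes the cell cycle inhibitor p21, Mdm2 the ubiquitin ligase that degrades p53, and Ccng1 the cyclin G1, which takes part in the same feedback. Bax and Bbc3, which encodes PUMA, promote cell death at the mitochondrion, Sesn2 restrains the growth kinase mTORC1, and Plk2 is a stress-induced polo-like kinase. Cdkn1a, Sesn2 and Plk2 also respond to signals other than p53.

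p53 binds DNA as a tetramer, and its response elements are made of a pair of half-sites. The stretches that match the p53 half-site consensus near the starts of the members are printed here. They were searched on both strands in the 300-base windows around RefSeq transcription starts, from 250 bases before to 50 bases from the start on (GRCm38.p6). All 8 gene symbols had such a window, 11 windows in all, and 5 of these windows held a half-site. Half-sites are in capitals, each sequence is given 5′ to 3′ on the strand of its gene, and 10 flanking bases are in lower case.
Trp53, chr11:69580274-69580303, + strand: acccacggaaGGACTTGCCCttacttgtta
Cdkn1a, chr17:29090896-29090947, + strand: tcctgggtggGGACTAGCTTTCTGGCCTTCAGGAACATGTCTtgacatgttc
Mdm2, chr10:117710925-117710954, - strand: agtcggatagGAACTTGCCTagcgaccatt
Ccng1, chr11:40755452-40755481, - strand: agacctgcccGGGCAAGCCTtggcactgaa
Bax, chr7:45467080-45467109, - strand: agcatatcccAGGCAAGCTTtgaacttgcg

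All 5 stretches lie before the transcription start, at -75 to -66 for Trp53, -186 to -177 for Mdm2, -185 to -176 for Ccng1 and -201 to -192 for Bax. The Cdkn1a stretch spans -73 to -42 and holds a pair of half-sites that do not overlap each other, with the bases between them also in capitals. It lies before the Cdkn1a start at 29090979, and the window of the other Cdkn1a start, at 29093769, held 0 half-sites. A pair with at most 13 bases between its half-sites was present in 24 of all 32851 windows (0.0731%), whereas at least 1 half-site was present in 8.36% of them. No half-site match was present in these windows of Bbc3, Sesn2 or Plk2. A match is a description of letters and not a bound site, and DNA outside these windows was not searched.

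The libraries held 8323896 to 10591577 unique molecular identifiers (UMIs, counted RNA molecules) each, and 65298 cells passed the limits of 200 to 7000 genes and at most 10% mitochondrial UMIs. Median depth was 3862 to 4049 UMIs per cell in batch 1 and 595 to 1142 in batch 2, and Actb took 1.99% to 2.27% of UMIs in batch 1 and 8.77% to 17.0% in batch 2. Within batch 2, 492 of 62643 cell barcodes occurred in more than 1 library. With all members kept out of the clustering genes, 55493 cells were tumor-like (named from markers such as Pvt1, Fmnl2, Cdh13 and Esx1), 2190 myeloid-like, 1430 T-like, 566 fibroblast-like, 556 dendritic-like, 444 epithelial-like, 285 fibroblast- and pericyte-like, 210 endothelial-like and 65 B-like. A further 4059 cells, among them mixtures of tumor and host RNA, stayed unnamed and entered no class. Ago1, the deleted gene, had 0 UMIs in endothelial-like cells of both WT (of 63126 UMIs) and KO (of 87589 UMIs) tumors, which allows up to 47.5 and 34.3 CPM, so the deletion could not be checked. In tumor-like cells Ago1 had a level of 5.67 ± 0.56 CPM in WT and of 6.05 ± 1.43 CPM in KO tumors (SD, n = 5). Levels below are counts per 1e+06 UMIs of the class in a library (CPM), with Actb left out of the total.

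Trp53 RNA was higher in tumor-like than in host-like cells of the same library in 10 of 10 libraries. In WT tumors the tumor-like level was 98.0 CPM in the batch 1 library and 85.7, 88.2, 127 and 92.5 CPM in WT 1, WT 3, WT 4 and WT 5. In KO tumors it was 98.3 CPM in the batch 1 library and 118, 101, 86.6 and 112 CPM in KO 1, KO 2+3, KO 4 and KO 5+6. The groups overlapped, and WT 4 was the highest and WT 1 the lowest library of all. In host-like cells the levels in the same order were 42.7, 71.6, 38.5, 82.1 and 49.7 CPM in WT and 43.5, 60.5, 81.8, 65.7 and 43.3 CPM in KO. The highest host-like level, 82.1 CPM, lay under the lowest tumor-like level, 85.7 CPM. The mean was 101 ± 14.1 CPM in tumor-like and 57.9 ± 16.7 CPM in host-like cells (SD, n = 10), a log2 difference of 0.96 ± 0.14 (SE, edgeR adjusted p = 5.87e-06). The host-like level rested on 236 UMIs in all.

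Of the 16494 genes tested between tumor-like and host-like cells, 56.4% passed adjusted p 0.05 in either direction, 27.8% as higher and 28.6% as lower in tumor-like cells. Among the members, 2 of 8 were higher (Trp53 and Bbc3), 4 of 8 were lower (Cdkn1a, Mdm2, Ccng1 and Plk2), and Bax and Sesn2 did not pass. A share of 6 in 8 members called is to be read against the 56.4% of all genes. The median log2 difference was -0.17 over the 8 members and -0.04 over all genes tested.

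**Figure D1:**
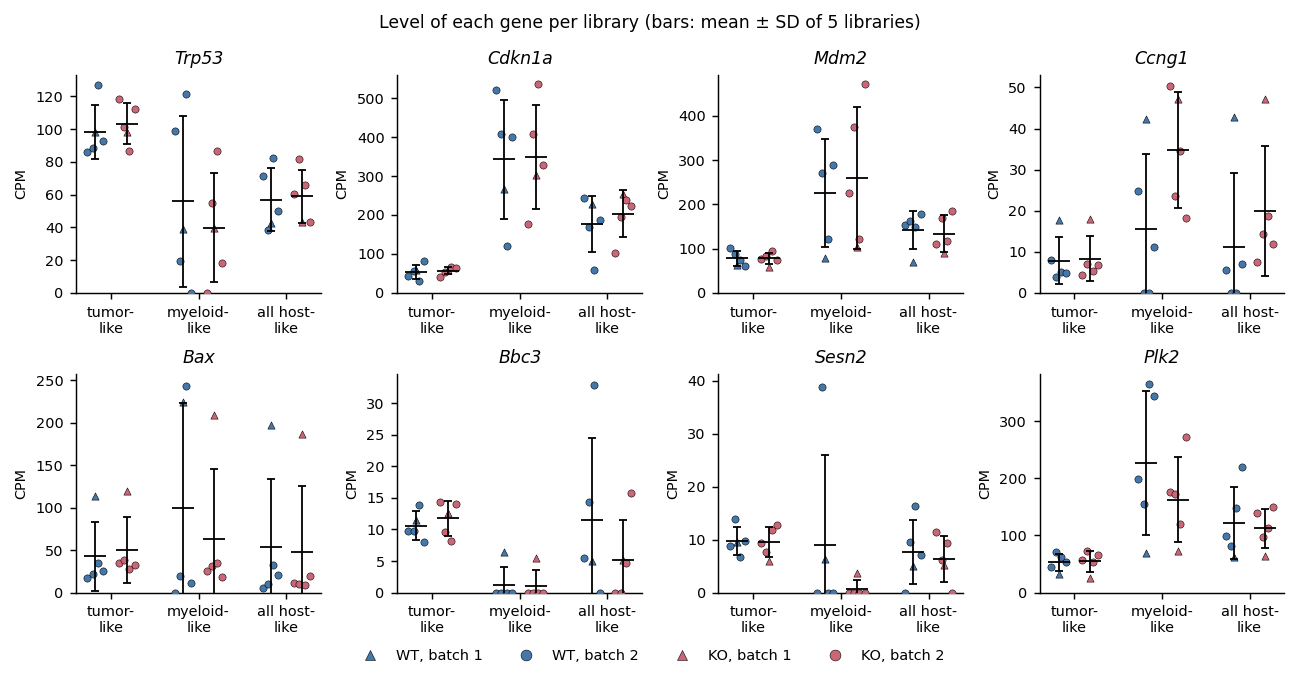
Level of each of the 8 genes in CPM (y axis, linear, from 0) in tumor-like, myeloid-like and all host-like cells of each library. Bars give the mean ± SD of 5 WT or 5 KO libraries, and myeloid-like cells are part of all host-like cells. Trp53 was higher in tumor-like cells, Cdkn1a, Mdm2 and Plk2 were higher in host-like cells, and the batch 1 libraries stood apart for Bax and Ccng1.

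Cdkn1a, the gene of p21, went the other way from Trp53 and was lower in tumor-like cells in 10 of 10 libraries. Its tumor-like level was 57.6, 44.4, 55.4, 30.8 and 80.7 CPM in the WT libraries (batch 1, WT 1, WT 3, WT 4 and WT 5) and 58.9, 41.9, 54.8, 66.5 and 64.8 CPM in the KO libraries (batch 1, KO 1, KO 2+3, KO 4 and KO 5+6). Its host-like level was 227, 242, 168, 57.5 and 188 CPM in WT and 254, 102, 194, 239 and 224 CPM in KO. WT 4, the library with the highest Trp53 level in tumor-like cells, had the lowest Cdkn1a level in both kinds of cells. It also held the fewest host-like cells, 247 with 121749 UMIs, and 28 of them were myeloid-like. Across libraries the host-like and tumor-like ranges overlapped (57.5 to 254 against 30.8 to 80.7 CPM), because of the WT 4 host-like level. The mean was 55.6 ± 14.0 CPM in tumor-like and 190 ± 64.6 CPM in host-like cells (SD, n = 10), and the log2 difference was -1.63 ± 0.16 (SE, adjusted p = 7.78e-09).

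Mdm2, whose product degrades p53, was also lower in tumor-like cells in 10 of 10 libraries. It was at 63.5, 102, 88.4, 75.1 and 60.9 CPM in the WT and at 58.3, 77.1, 84.4, 94.5 and 74.2 CPM in the KO libraries, in the same order. In host-like cells it was at 68.7, 154, 164, 148 and 178 CPM in WT and at 89.1, 110, 170, 117 and 185 CPM in KO, so that both batch 1 libraries were the lowest. The log2 difference was -0.66 ± 0.14 (SE, adjusted p = 0.000282). This call depended on scaling: the log2 difference was -0.18 with Actb kept in the totals (adjusted p = 0.355) and -0.10 without a limit on low counts (adjusted p = 0.765).

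Plk2 was at 54.2 ± 15.9 CPM in tumor-like and 118 ± 48.2 CPM in host-like cells (SD, n = 10) and was lower in tumor-like cells in 10 of 10 libraries. Its log2 difference was -0.97 ± 0.16 (SE, adjusted p = 1.71e-05), and without a limit on low counts it was -0.40 (adjusted p = 0.120). In both classes the batch 1 libraries were the lowest, at 25.4 and 32.4 CPM against 45.7 to 73.3 CPM in tumor-like cells. Ccng1 was a low gene, at 7.88 CPM or less in all tumor-like cells of batch 2. Its log2 difference of -0.91 ± 0.31 (SE, adjusted p = 0.0146) rested on batch 1, since it was -0.44 in batch 2 alone (adjusted p = 0.370) and was lower in tumor-like cells in 7 of 10 libraries. Leaving out WT of batch 1, KO of batch 1 or KO 4 also ended this call, with adjusted p of 0.176, 0.207 and 0.0757.

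Bax, the pore former of the mitochondrial death pathway, differed in direction between the batches. In batch 1 it was at 114 and 120 CPM in tumor-like and 197 and 187 CPM in host-like cells of the WT and the KO library. In batch 2 it was at 16.9 to 37.9 CPM in tumor-like and 5.51 to 32.9 CPM in host-like cells, and the tumor-like level was the higher one in 8 of 8 libraries. The host-like levels of batch 2 rested on 1 to 6 Bax UMIs per library. Over both batches the log2 difference was 0.33 ± 0.29 (SE, adjusted p = 0.345), and in batch 2 alone it was 1.28 (adjusted p = 2.09e-05). Without the WT or the KO library of batch 1 it was 0.85 (adjusted p = 0.0117) or 0.82 (adjusted p = 0.0125). Against myeloid-like cells in batch 2 alone it was 0.74 (adjusted p = 0.126). Myeloid-like cells gave 2022784 of 2550576 host-like UMIs in batch 1 and 470644 of 2013344 in batch 2. Within myeloid-like cells Bax was at 225 CPM in the WT and 209 CPM in the KO library of batch 1. In batch 2 it had 0 to 4 UMIs per library there, at 0 to 34.5 CPM apart from 243 CPM (2 UMIs) in WT 4. The part of batch and of the make-up of the host-like cells in the change of direction was not tested. Bax overlaps Gm45808 on the same strand over 915 bases, so the split of reads between these genes is uncertain.

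Bbc3 was at 11.2 ± 2.5 CPM in tumor-like cells (SD, n = 10), between 7.95 and 14.4 CPM, and rested on 26 UMIs in host-like cells, 13 in each batch. Its log2 difference of 0.96 ± 0.40 (SE) passed with adjusted p = 0.0451 and was higher in 7 of 10 libraries. The call was lost with DESeq2 (adjusted p = 0.111), in batch 2 alone (0.0572) and without KO 1 (0.0540) or KO 2+3 (0.0581). Sesn2 was at 5.91 to 13.9 CPM in tumor-like cells and had a log2 difference of 0.59 ± 0.35 (SE, adjusted p = 0.154). It overlaps Gm12981 on the same strand over 6089 bases. It passed in 7 of 18 alternatives. These were without WT 4 (0.84, adjusted p = 0.0483), without KO of batch 1 (0.88, adjusted p = 0.0473), without a limit on low counts (1.08, adjusted p = 0.0106), with Actb kept (1.00, adjusted p = 0.0256), at the lower clustering resolution (0.99, adjusted p = 0.0322) and with free RNA (1.79, adjusted p = 0.0322) or the tumor-like profile (1.17, adjusted p = 0.0198) subtracted.

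Scaling moved all genes together in this comparison. The median log2 difference of the genes tested was -0.04, and it lay between -0.22 with DESeq2 and 0.47 without a limit on low counts. Relative to that median, Trp53 stayed at 0.99 to 1.03 over these scalings, Cdkn1a at -1.61 to -1.52, Mdm2 at -0.63 to -0.57, Plk2 at -0.95 to -0.87 and Bbc3 at 0.95 to 1.07. Bax, at 0.36 to 0.72, varied most among the members by this measure.

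**Figure D2:**
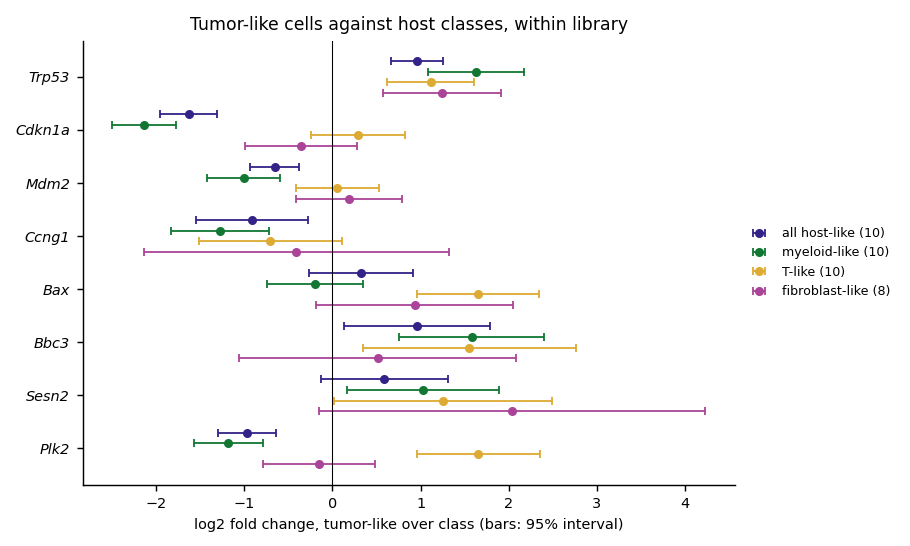
Log2 difference between tumor-like and other cells (x axis, tumor-like over the class, bars 95% intervals) for each of the 8 genes against all host-like, myeloid-like, T-like and fibroblast-like cells. Trp53 lay right of 0 in all 4 comparisons, and the interval of Cdkn1a lay wholly left of 0 against all host-like and myeloid-like cells and spanned 0 against T-like and fibroblast-like cells.

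The 7 targets summed gave 263 ± 26.2 CPM in tumor-like cells (SD, n = 10; range 229 to 306) and 527 ± 91.2 CPM in host-like cells (range 382 to 652). The host-like sum was the higher one in 10 of 10 libraries and the ranges did not overlap, with a ratio of means of 2.00. Against all host-like cells together, tumor-like cells therefore had higher Trp53 and a lower sum of targets in each of the 10 libraries. In myeloid-like cells the sum was 897 ± 169 CPM, 3.41 times the tumor-like mean. This ratio was 2.70 in endothelial-like, 1.78 in dendritic-like, 1.53 in epithelial-like and 1.19 in fibroblast-like cells. In T-like cells it was 1.08, with the tumor-like sum higher in 5 libraries and lower in 5. In fibroblast- and pericyte-like cells it was 1.08, with the tumor-like sum higher in 4 libraries and lower in 5. The endothelial-like sum rested on 67 UMIs, most of them of Plk2. By gene the endothelial-like ratio was 8.80 for Plk2 and 2.38 for Cdkn1a. It was 0.29 for Bax, 0.21 for Mdm2 and 0 for Ccng1, Bbc3 and Sesn2.

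Against myeloid-like cells, the largest host class, 65.9% of 14200 genes were called (43.6% as higher and 22.3% as lower in tumor-like cells), and 7 of the 8 members were. Trp53 (1.63 ± 0.27, adjusted p = 3.26e-06), Bbc3 (1.58 ± 0.40, adjusted p = 0.000982) and Sesn2 (1.03 ± 0.42, adjusted p = 0.0334) were higher in tumor-like cells (log2 difference ± SE). Cdkn1a (-2.14 ± 0.18, adjusted p = 1.38e-12), Ccng1 (-1.27 ± 0.27, adjusted p = 0.000134), Plk2 (-1.18 ± 0.19, adjusted p = 2.40e-06) and Mdm2 (-1.01 ± 0.20, adjusted p = 6.33e-05) were lower, and Bax did not pass (-0.20 ± 0.27, adjusted p = 0.523). The Sesn2 call was lost in 16 of 18 alternatives, among them 8 of the 10 that left out a library.

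Cdkn1a in myeloid-like cells ranged from 122 CPM in WT 4 to 535 CPM in KO 4, and its mean of 346 ± 135 CPM (SD, n = 10) was 6.23 times the tumor-like mean. The WT 4 level was 1 UMI of 8223. Every myeloid-like level lay above every tumor-like level. Trp53 in myeloid-like cells was counted 99 times in all, 80 of these in batch 1, where it was at 39.2 CPM in the WT and 39.8 CPM in the KO library. In batch 2 it was at 0 in WT 5 and KO 1 and up to 122 CPM in WT 4, where 1 UMI gave that level. Bbc3 had no UMI in myeloid-like cells of batch 2.

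T-like cells differed from the myeloid-like pattern. Of 13608 genes, 56.5% were called between tumor-like and T-like cells (39.9% as higher and 16.6% as lower in tumor-like cells), and 4 of 8 members were, all of them higher in tumor-like cells: Trp53 (1.12 ± 0.25, adjusted p = 5.51e-05), Bax (1.65 ± 0.35, adjusted p = 2.10e-05), Plk2 (1.65 ± 0.35, adjusted p = 2.32e-05) and Bbc3 (1.55 ± 0.61, adjusted p = 0.0236). Cdkn1a was at 70.7 ± 49.0 CPM in T-like cells (SD, n = 10), with a log2 difference of 0.29 ± 0.27 (SE, 95% interval -0.24 to 0.83, adjusted p = 0.350). By CPM its tumor-like level was higher in 4 libraries and lower in 6. Over all genes tested the median log2 difference was 0.57 here, against 0.49 for myeloid-like and 0.47 for fibroblast-like cells. Relative to the median against T-like cells, over the scalings given above, Trp53 was at 0.54 to 0.71 and Cdkn1a at -0.28 to -0.10. Bax was at 0.93 to 1.41, Plk2 at 1.07 to 1.75 and Bbc3 at 0.93 to 1.00. The Bbc3 call was lost without any 1 of WT of batch 1, KO of batch 1, KO 1 and KO 2+3, with adjusted p of 0.0525 to 0.115. It was also lost with DESeq2 (adjusted p = 0.265), with DESeq2 size factors in edgeR (0.126) and in batch 2 alone (0.155). Sesn2 did not pass (1.26 ± 0.63, adjusted p = 0.0775) but passed without WT 4 (adjusted p = 0.0128) or WT 5 (adjusted p = 0.0187). Against fibroblast-like cells, present in 8 libraries of batch 2, 30.2% of 11671 genes were called (19.3% as higher) and Trp53 alone among the members was (1.24 ± 0.34, adjusted p = 0.00191). That call was lost with DESeq2 (0.85, adjusted p = 0.136), and Sesn2 passed only without KO 4 (adjusted p = 0.0399).

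**Figure D3:**
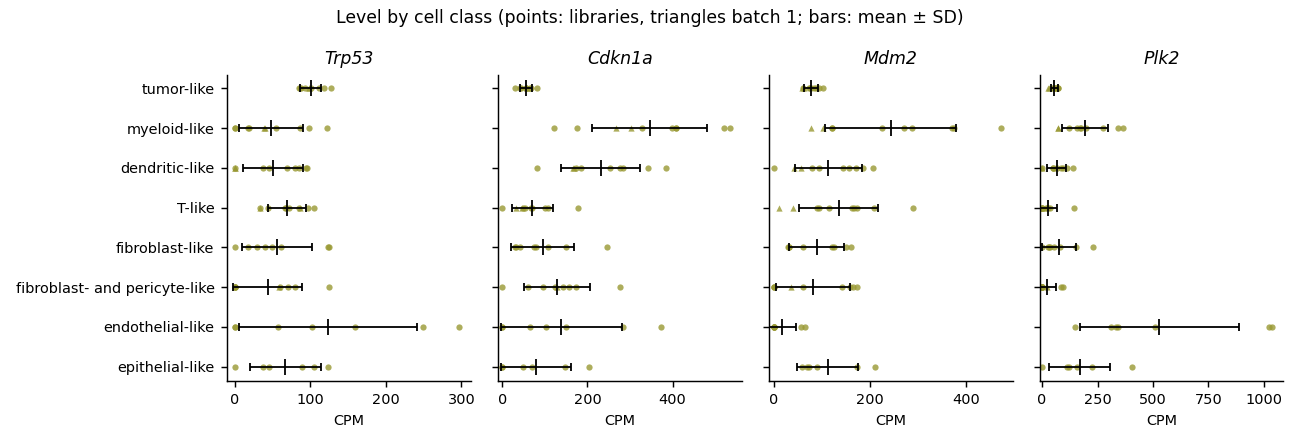
Levels in CPM (x axis, linear) by cell class (y axis), with 1 point per library holding at least 10 cells of the class and bars for mean ± SD. Cdkn1a reached its highest levels in myeloid-like and dendritic-like cells, and Plk2 in endothelial-like cells.

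Over the 9 classes, mean Trp53 fell in the order endothelial-like (124 ± 117 CPM, n = 7), tumor-like (101 ± 14.1, n = 10), B-like (85.1 ± 11.0, n = 2), T-like (69.1 ± 25.4, n = 10), epithelial-like (66.8 ± 47.0, n = 6), fibroblast-like (56.0 ± 46.0, n = 8), dendritic-like (50.8 ± 39.9, n = 10), myeloid-like (47.8 ± 42.2, n = 10) and fibroblast- and pericyte-like (43.7 ± 45.6, n = 9). Neighbours in this order differed by less than the larger of their SDs, except tumor-like and B-like cells, and B-like cells were in batch 1 only. The endothelial-like value rested on 9 UMIs and ran from 0 to 298 CPM.

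Endothelial-like cells, the class that carries the deletion in KO mice, were few, and 7 libraries held at least 10 of them. Plk2 stood highest there, at 529 ± 358 CPM (SD, n = 7; 50 UMIs). By library it was at 511, 149 and 341 CPM in WT 1, WT 3 and WT 5 and at 1025, 332, 1036 and 311 CPM in KO 1, KO 2+3, KO 4 and KO 5+6, each above the 73.3 CPM of the highest tumor-like library. In WT 1, WT 3, KO 2+3 and KO 4, which held 6722 to 12553 UMIs each, any count over 0 gives such a level. The level of WT 3 was 1 UMI. The WT and KO values overlapped, and no test between the groups was made in so few cells. Ccng1, Bbc3 and Sesn2 had no UMI among 90393 in endothelial-like cells, which allows a level of up to 33.2 CPM, so a difference from tumor-like cells was not detectable at this depth. Mdm2 was at 17.3 ± 29.6 CPM, from 2 UMIs. In dendritic-like cells Cdkn1a was at 231 ± 92.7 CPM (SD, n = 10), above the tumor-like level in 10 of 10 libraries.

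RNA of tumor markers was present in host barcodes, and its share in all host-like cells was higher in batch 2. Whether host cells made part of it themselves was not tested. The summed level of 4 tumor markers (Pvt1, Fmnl2, Cdh13 and Esx1) in host-like cells was 6.58% to 7.30% of that in tumor-like cells in batch 1 and 21.7% to 51.6% in batch 2. In myeloid-like cells it was 6.24% to 6.44% in batch 1 and 9.83% to 27.1% in batch 2. In batch 2 it was 16.7% to 55.9% in T-like, 39.1% to 65.0% in dendritic-like, 28.9% to 58.9% in endothelial-like, 37.9% to 54.9% in fibroblast-like, 28.6% to 54.3% in epithelial-like and 14.7% to 67.1% in fibroblast- and pericyte-like cells. In batch 1 the share estimated for the subtraction was 41.6% to 58.3% in endothelial-like cells, from 9 WT and 8 KO cells. When the tumor-like profile of the same library was subtracted at that share, the log2 difference of Trp53 between tumor-like and host-like cells was 2.20 (adjusted p = 4.74e-06) that of Cdkn1a was -1.35 (adjusted p = 2.40e-05) and the median of all genes was 0.39. Trp53 in host-like cells of batch 2 then had a median of 30.9 CPM (range 0 to 75.3) and Cdkn1a of 250 CPM (range 81.7 to 369). This alternative was chosen after the data had been seen, and with it Mdm2 no longer passed (-0.28, adjusted p = 0.269). Scaled instead to the free RNA of barcodes with at most 50 UMIs, the same markers put the share of free RNA in host-like cells at 34.0% to 38.1% in batch 1 and at 85.5% to 100% in batch 2, where 100% was the most the estimate could give and the median. It was 100% in each dendritic-like, fibroblast-like and endothelial-like sum of batch 2. After subtraction of free RNA at that share, Trp53 had 4.11 (adjusted p = 0.000826) and Cdkn1a -1.41 (adjusted p = 0.00538), with a median of all genes of 1.47. Plk2 (-0.70, adjusted p = 0.110) and Mdm2 (-0.31, adjusted p = 0.425) no longer passed.

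Other genes of the p53 network were counted from fixed lists in the comparison of tumor-like with host-like cells. Of 28 other p53 targets, 25 were tested, 8 were higher, 5 lower and 12 did not pass (median 0.21), against 56.4% of all genes called, 27.8% as higher and 28.6% as lower, which is also the background of the lists that follow. Zmat3, a p53-induced RNA-binding protein, was higher by 1.03 ± 0.19 (SE, adjusted p = 0.000101) and Ak1, an adenylate kinase, by 1.18 ± 0.28 (adjusted p = 0.00117). Trp53cor1, the noncoding RNA next to Cdkn1a, had 0.50 ± 0.51 (adjusted p = 0.420). Of 17 p53 regulators tested, 4 were higher, 1 lower and 12 did not pass. Mdm4, the partner of Mdm2, had -0.03 ± 0.14 (adjusted p = 0.881), the ubiquitin ligase Cop1 -0.16 ± 0.13 (adjusted p = 0.305) and the coactivator Ep300 -0.11 ± 0.13 (adjusted p = 0.466). Of the p53 family, Trp63, a factor of basal epithelium, was lower (-3.28 ± 0.50, SE, adjusted p = 9.05e-06), and the other member did not pass.

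Among 12 apoptosis regulators, 4 were higher and 3 lower. Bok, a relative of Bax (2.16 ± 0.26, adjusted p = 2.88e-07), was higher, and the survival factor Mcl1 was lower (-0.86 ± 0.15, adjusted p = 5.91e-05). Of 8 tested genes of the integrated stress response, 3 were higher and 2 lower, with Atf4 at 0.53 ± 0.15 (adjusted p = 0.00412), Atf3 at -2.16 ± 0.20 (adjusted p = 3.73e-09) and Ppp1r15a at -0.37 ± 0.20 (adjusted p = 0.131). Of 15 dissociation and immediate early genes, which include Plk2, 1 was higher and 13 were lower (median -1.85). Their summed level was 394 to 799 CPM in tumor-like and 1317 to 4305 CPM in host-like cells of batch 2, and 1453 to 1554 and 5542 to 5724 CPM in batch 1. Junb (-1.85 ± 0.18, adjusted p = 1.26e-08), Fosb (-1.52 ± 0.15, adjusted p = 8.52e-09) and Hspa1b (-2.77 ± 0.30, adjusted p = 7.09e-08) were lower. Of 14 proliferation genes 10 were higher and 2 lower (median 1.19), with Ccnb1 at 1.69 ± 0.29 (adjusted p = 4.02e-05), Cdc20 at 1.46 ± 0.28 (adjusted p = 0.000137) and Mcm2 at 0.68 ± 0.25 (adjusted p = 0.0236). The part of these early and cycling genes in the target levels was not tested.

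Within tumor-like cells, libraries with more Trp53 did not have a detectably different sum of targets. Over the 8 libraries of batch 2, Pearson's r was -0.32 (exact permutation p = 0.412) and Spearman's rho was -0.14 (exact permutation p = 0.752). Without WT 4 and KO 1, the libraries farthest from the median Trp53 level, r was 0.54 (n = 6, exact permutation p = 0.247), so the sign rested on these libraries. In host-like cells r was -0.35 (exact permutation p = 0.389) and rho was -0.29 (exact permutation p = 0.501), and without WT 3 and KO 5+6 r was -0.45. Both relations computed had an adjusted p of 0.412. In batch 1, tumor-like Trp53 was 98.0 and 98.3 CPM and the targets summed to 306 and 299 CPM in the WT and the KO library.

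Tumor-like cells with a Trp53 UMI were then set against those without one in the same library, after each cell was thinned to 500 UMIs. The 1713 cells with a Trp53 UMI had 2.66 target UMIs per 10000 and the 33139 without had 2.65, as means over 10 libraries. The difference was 0.0055 ± 0.57 (SD over libraries), was positive in 5 of 10 libraries and had an exact two-sided sign-flip permutation p of 0.971 (the smallest possible was 0.00195). The largest rise was in KO 5+6, from 2.65 to 3.67, and the largest fall was in KO 2+3, from 2.74 to 2.16. Of the single targets, Bax had -0.29 ± 0.50 per 10000, lower in 8 of 10 libraries (exact permutation p = 0.0605, adjusted over 7 targets 0.383). Its largest falls were in batch 1, from 1.36 to 0 in WT and from 0.994 to 0 in KO. Only 30 and 21 cells had a Trp53 UMI in these libraries. Thinning to 1000 UMIs gave a difference of -0.0076 (exact permutation p = 0.953), and cells without a UMI of the proliferation genes gave -0.021 (exact permutation p = 0.920). At this depth 1 UMI in 500 is a coarse sign of a gene's level, and free RNA also gives UMIs.

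**Figure D4:**
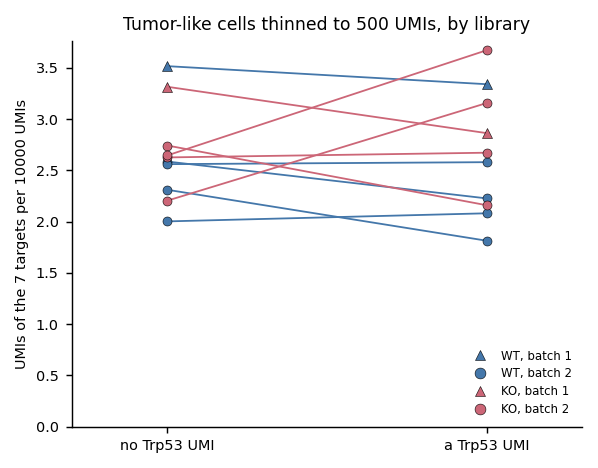
Target UMIs per 10000 UMIs (y axis, from 0) in tumor-like cells without and with a Trp53 UMI, thinned to 500 UMIs, with 1 line per library. The lines run in both directions, up in 5 and down in 5 of the 10 libraries.

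The members also varied between clusters of tumor-like cells, given here as a description over the 8 libraries of batch 2 and with no test. The cluster led by Rps28, Rps15a, Clu and Gapdh (7971 cells) had the highest Trp53, 145 ± 27.1 CPM (SD), together with the highest Cdkn1a (80.9 ± 24.0 CPM) and Bax (54.9 CPM) of the batch 2 clusters. The cluster led by Ccl2 and Nfkbia (6983 cells) had the highest Plk2, 95.9 CPM (range 77.1 to 115), and the highest sum of targets, 320.1 ± 33.7 CPM. The cluster led by Flrt2 and Gpnmb (2780 cells) had the lowest Trp53, 77.8 ± 28.8 CPM, and the highest Mdm2, 108 ± 17.5 CPM. The lowest sum, 197 ± 28.2 CPM, and the lowest Mdm2, 43.9 ± 11.6 CPM, were in the cluster led by Tubb5 (2759 cells). High Trp53 and a high level of a given target thus met in some clusters and not in others.

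Between EC-AGO1-KO and WT tumors, no member differed past the threshold in any cell class tested. In tumor-like cells 12875 genes were tested with batch as a covariate, and edgeR called 0 (0%), with 693 at an unadjusted p under 0.05 and 1 called by DESeq2. Trp53 had a log2 change of 0.02 (95% interval -0.26 to 0.31) and means of 98.3 ± 16.7 CPM in WT and 103 ± 12.3 CPM in KO (SD, n = 5). Cdkn1a had 0.05 (-0.36 to 0.46), Mdm2 -0.06 (-0.34 to 0.23), Plk2 -0.03 (-0.34 to 0.28), Ccng1 0.05 (-0.39 to 0.49), Bbc3 0.11 (-0.31 to 0.54) and Sesn2 -0.09 (-0.55 to 0.36). Of the 8 members Bax had the largest change, 0.29 (-0.07 to 0.66; adjusted p = 0.886). In batch 2 Bax was at 16.9, 22.2, 34.8 and 25.6 CPM in WT 1, WT 3, WT 4 and WT 5 and at 35.4, 37.9, 27.6 and 32.0 CPM in KO 1, KO 2+3, KO 4 and KO 5+6, so that 2 KO libraries lay above all WT libraries and 2 did not. The KO library of batch 1 was at 120 CPM and the WT library at 114 CPM.

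**Figure D5:**
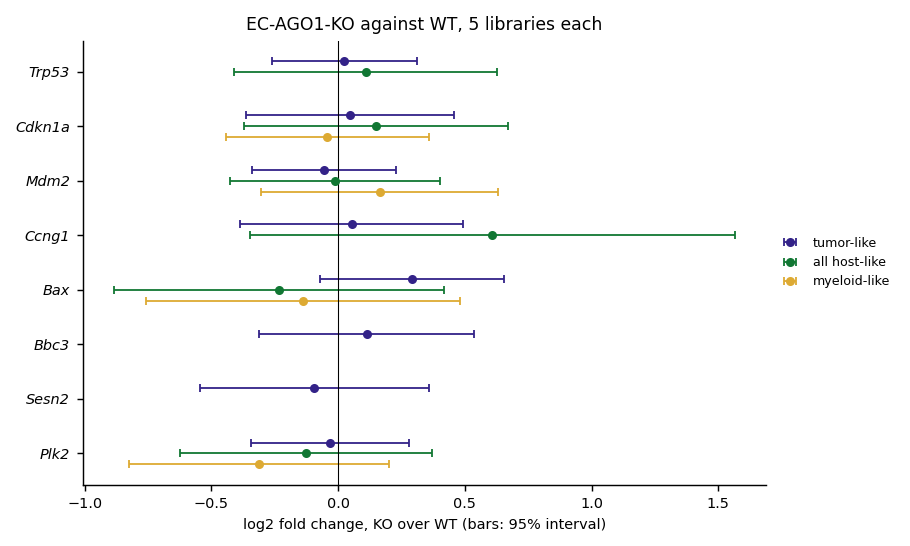
Log2 change between KO and WT (x axis, KO over WT, points with 95% intervals) for each gene in tumor-like, all host-like and myeloid-like cells, with 5 libraries per group. Every interval spans 0, and genes not tested in a class have no point.

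The intervals in host-like cells were wider. In all host-like cells 6 members were among the 6300 genes tested and 0 genes (0%) were called by edgeR, 369 at an unadjusted p under 0.05 and 1 by DESeq2. Trp53 had 0.11 (-0.41 to 0.63), Cdkn1a 0.15 (-0.37 to 0.67), Mdm2 -0.01 (-0.43 to 0.40), Plk2 -0.13 (-0.62 to 0.37), Bax -0.23 (-0.88 to 0.42) and Ccng1 0.61 (-0.35 to 1.57). Ccng1 rested on 3 UMIs in WT and 16 in KO host-like cells of batch 2. In myeloid-like cells 0.143% of 2092 genes were called (0.0478% as higher and 0.0956% as lower in KO) and 0 of 4 members tested were, with Cdkn1a at -0.04 (-0.44 to 0.36), Mdm2 at 0.16 (-0.30 to 0.63), Bax at -0.14 (-0.76 to 0.48) and Plk2 at -0.31 (-0.82 to 0.20).

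In T-like cells 0.47% of 1913 genes were called, and Mdm2, the only member tested, had -0.29 (-1.19 to 0.61). No member was among the 751 genes tested in fibroblast-like cells, of which edgeR called 0 (0%), 30 being at an unadjusted p under 0.05 and 2 called by DESeq2. With all cells of a library summed, 0 of 14181 genes (0%) were called by edgeR, 1313 at an unadjusted p under 0.05 and 2 by DESeq2, and the 8 members had log2 changes of -0.10 to 0.21. Whether the KO change differed between tumor-like and myeloid-like cells was tested as an interaction, in which 0.0352% of 14200 genes were called (0.0211% with the higher and 0.0141% with the lower change in tumor-like cells) and 0 of 8 members were (differences of -0.38 to 0.76, all adjusted p of 1). Such sums cannot tell fewer cells of a type from less RNA per cell.

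Between the groups in tumor-like cells, edgeR called 0 genes in each of the 7 other lists. Trp53cor1 had 0.56 ± 0.23 (SE, adjusted p = 0.886), Ak1 0.27 ± 0.16 (adjusted p = 0.886), Zmat3 -0.21 ± 0.17 (adjusted p = 0.898) and Cop1 -0.39 ± 0.12 (adjusted p = 0.886). Of 14 proliferation genes tested, 12 had a positive log2 change (median 0.06), and of 17 regulators 13 had a negative one (median -0.11), against a median of 0.00212 over all genes. No test was made of these counts of signs, and the genes of a list were measured in the same libraries. Fosb had 0.87 ± 0.25 and Hspa1b -0.81 ± 0.27 (both adjusted p = 0.886). Junb had 0.33 ± 0.12 (adjusted p = 0.886). Among the genes named from these lists, the unadjusted edgeR p was under 0.05 for Trp53cor1 (0.0242), Cop1 (0.00522), Fosb (0.00306), Hspa1b (0.00736) and Junb (0.0138). The genes were named by the smallest p in this same comparison, so small values among them follow from the choice. Of all 12875 genes tested, 693 had an unadjusted p under 0.05.

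The genes whose class pattern was most like that of Trp53 over the 9 class means of log2 CPM were Gabarapl2 (Pearson's r = 0.904), Slc25a32 (0.902) and Utp11 (0.896), out of 16493 compared. For Cdkn1a they were Gab2 (0.980), Rap2b (0.979) and Clic4 (0.979). These are descriptions over 9 points that share libraries and differ in depth, and they carry no p.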

How the data were processed

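Single-cell RNA of 10 libraries was made by the authors with 10x 3′ v3 chemistry, and the deposited count matrices hold UMI counts per gene and barcode from Cell Ranger 7.1.0 on mm10, per the labels. The members and lists were chosen with earlier results of these data known. A barcode counted as a cell if it had 200 to 7000 genes and its mitochondrial share did not pass 10%. No doublet caller was run, but clusters mixing tumor and host RNA were left unnamed. Cells were clustered in scanpy 1.11.5 (2000 variable genes, 30 components, 15 neighbours, Leiden resolution 1) with 57 genes (those of the p53 lists and Actb) and the mitochondrial genes kept out of the clustering genes. Clusters were named from fixed markers, of which at least 3 had to pass. The thresholds for naming were chosen with the clusters in view. Trp53, which the study used to annotate tumor cells, was not a marker here.

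UMIs were summed per library and class, for classes of at least 10 cells, without Actb, and tested with edgeR 4.0.16 (R 4.3.3; TMM, filterByExpr, quasi-likelihood test, Benjamini-Hochberg over all genes tested). Batch was a covariate between KO and WT, and library was a block between classes. Relations and differences over libraries were tested by exact permutation in scipy 1.17.1. All 8 members were named, and of each other list the 3 genes with the smallest p between KO and WT in tumor-like cells. Of the genes this rule named, 1 is not reported here. The edgeR steps were tested on simulated data. Nothing says how far the libraries of a group were independent beyond the labels' separate tumors, and the floors for a count of 0 cover counting error only, while the 95% intervals of edgeR include the spread between libraries. Alternatives were DESeq2 1.42.0, other scalings, limits on low counts, mitochondrial share and resolution, subtraction of free or tumor RNA, batch 2 alone, a replicate block and leaving out libraries. The number of per-sample columns not used was 0.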

Additional observations from a re-analysis of the deposited data

Results flagged for a closer look

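Within groups of 5 libraries, 8 of the 36 groups looked at had a library far from the other 4, where chance gives about 1 in 20, and each of the 8 was a library of batch 1. In tumor-like cells, Ccng1 in the KO library of batch 1 was at 17.9 CPM, against 4.43 to 7.13 CPM in the others. Bax was at 114 CPM in the WT library of batch 1 (others 16.9 to 34.8 CPM) and at 120 CPM in the KO library of batch 1 (others 27.6 to 37.9 CPM). In host-like cells, Mdm2 in the WT library of batch 1 was low, at 68.7 CPM against 148 to 178 CPM. Ccng1 was at 42.7 CPM in WT (others 0 to 7.11 CPM) and 47.1 CPM in KO (others 7.56 to 18.8 CPM), and Bax was at 197 CPM in WT (others 5.51 to 32.9 CPM) and 187 CPM in KO (others 9.38 to 19.7 CPM). Batch 1 and batch 2 also differed in depth per cell, in the share of Actb and in the myeloid-like share of host-like cells. The part of these in the gap was not tested.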

How the results depend on the processing

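The calls of Trp53 and Cdkn1a between tumor-like and host-like or myeloid-like cells kept their direction and side of the threshold in each of the 18 alternatives. Subtraction of the tumor-like profile moves host CPM away from the tumor-like level, so by CPM it could not have reversed these directions. Over the 8 members, 18 of 144 values against host-like cells lost their call, 14 gained one and 1 reversed: Ccng1 was at 0.052 after subtraction of free RNA, whose cause was not tested. Against myeloid-like, T-like and fibroblast-like cells, 16 of 144, 7 of 144 and 2 of 136 lost a call, and 0, 6 and 1 gained one. No member was called between KO and WT under any alternative. Calls over all genes moved as follows, and the causes were not tested. With DESeq2 they were 1 in tumor-like, 1 in host-like, 0 in myeloid-like, 3 in T-like, 2 in fibroblast-like and 2 in all cells. Without a limit on low counts they were 36, 48, 16, 0, 2 and 242, in the same order. In batch 2 alone they were 6 in myeloid-like cells and 1 in the interaction. With no batch term they were 0 in myeloid-like and 0 in T-like cells, and without the pooled KO libraries 0, 1 and, in all cells, 1. At resolution 0.5 T-like cells had 0. Tumor-like against fibroblast-like cells had 3521 calls, and 5327 with the tumor-like profile subtracted. Leaving out 1 library gave 0 to 1 calls in host-like, 0 to 9 in myeloid-like, 0 to 11 in T-like, 0 to 2 in fibroblast-like and 0 to 1 in all cells, and 1 to 9 in the interaction. With 1 library left out, the relation of Trp53 to its targets ran from r = -0.57 to 0.03 in tumor-like and from -0.62 to -0.15 in host-like cells, and without both WT 4 and KO 1 it was 0.54 in tumor-like cells. With 1 library left out, the difference by Trp53 UMI ran from -0.108 to 0.0708. Batch 2 alone and no batch term were not run for fibroblast-like cells, which lay in batch 2. Only the numbers 1 and 4 were shared by WT and KO, and deviations of same-numbered libraries correlated at -0.18 and -0.33 over 9938 genes, so the numbers were not taken as pairs. The replicate block gave 0 calls in each class, with Trp53 at -0.10 and Cdkn1a at 0.46 in tumor-like cells. Low counts of Ccng1, Bbc3 and Sesn2, and of all members in host-like cells of batch 2, limit what could be detected.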
